A study of Homo sapiens with 38 samples.

Results

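The step from 0.4 to 0.8 µM of CT on day 4 of neural induction was examined in H9 cells, an established line of human embryonic stem cells. CT is the WNT activator of the study, and the labels leave its name unexpanded. The comparison takes the 2 libraries of the group D4 CT0.8 against the 2 of D4 CT0.4, chosen by the day and treatment given for each column of the deposited table, and these are 4 of the 38 libraries of the series. All 4 come from wild-type H9 cells collected on day 4 and labelled neural progenitor cells, so the dose of CT is the only labelled difference, and both groups were treated. The whole series has 2 libraries in each of 19 groups: undifferentiated cells on day 0 and, on days 4 and 8, cells given CT at 0.0, 0.4, 0.8, 1.0, 2.0, 3.0 or 4.0 µM, the WNT secretion inhibitor IWP2 at 2.0 µM, or CT at 4.0 µM with retinoic acid (RA) at 1.0 µM. H9 is a single line, and the design text calls the 2 libraries of a group biological replicates without saying whether they came from separate differentiations. The p-values below therefore measure the spread between these libraries, which may be partly technical.

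In the early neural plate, WNT signalling is low at the front and high at the back, and cells read its level as position along the head-to-tail axis. Forebrain and midbrain cells express the homeobox gene OTX2 and hindbrain cells express GBX2, and the line where the territories meet becomes the isthmic organizer, a signalling centre between midbrain and hindbrain that makes FGF8 and WNT1 and is flanked by cells with EN1 and the PAX2, PAX5 and PAX8 genes. Retinoic acid adds a second posterior signal in the hindbrain, where it turns on anterior HOX genes, and the enzyme CYP26A1 destroys it.

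Levels are TPM, a transcript level corrected for length and scaled to the same total in every library, and changes are log2 fold changes on the log2(TPM + 1) scale ± SE, at which low genes change less than their TPM do. Calls come from a limma fit of all 38 libraries and need an adjusted p (Benjamini-Hochberg) under 0.05 together with a log2 change of 1 or more in either direction; "rose" and "fell" are used below of called genes. TPM keeps no read depth, so the number of reads behind a value is unknown. Each of the 4 libraries had its highest correlation over genes with the other library of its own group (r = 0.970 for CT0.4 and 0.964 for CT0.8), and ribosomal protein genes held 25.6% to 27.9% of TPM in them.

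Between 0.4 and 0.8 µM of CT, OTX2, FEZF1, EMX2 and OTX1 of the forebrain fell and genes of the isthmus and the anterior hindbrain rose, among them EN1, PAX8, FGF8, GBX2 and HOXA2. The retinoic acid enzyme CYP26A1 and feedback genes of FGF signalling rose, while DKK1 and SHISA2 fell. Shared neural progenitor genes such as SOX2, and the title genes SOX21 and WNT8B, were not called. Of 28221 genes tested, 334 were called (1.18%), of which 207 were higher at CT0.8 (0.733%) and 127 were lower (0.45%). Of the 334, 253 were protein-coding. The CT0.4 and CT0.8 libraries did not overlap in any of the 334, which their size and p make likely, nor in 38.1% of all genes tested (23.4% higher and 14.7% lower), so non-overlap is given below as a description. An unadjusted p under 0.05, used below for lists with few calls, was reached by 13.4% of all genes tested (8.46% higher and 4.9% lower). The median change over all genes tested was 0.015. Both libraries of a dose moved the same way, but not equally far. Of the 207 genes called higher, 141 (68.1%) had their higher value in CT0.8 replicate 2, against 48.4% of all genes tested, and of the 127 called lower, 83 (65.4%) had their lower value in that library, against 39.3%. The part of this library in the calls was not tested beyond leaving it out. Leaving out each of the 4 libraries in turn called between 292 and 361 genes, of which 207 to 242 were among the 334. The split moved with the library left out: it was 208 higher and 84 lower without CT0.8 replicate 2, 160 and 150 without CT0.4 replicate 1, 249 and 112 without CT0.8 replicate 1 and 205 and 136 without CT0.4 replicate 2. The calls rest on a spread shared with the other groups: fitted to the 4 libraries alone, the same contrast called 77 genes, of which 20 were among the 334, and at most 1 member of any gene list used below. Single genes were followed into that fit for a set of 93, described with the processing. Those of the set still called were SNAI2, SLC2A3, PAX6, MEIS2 and SPRY2. Other genes named below, such as PAX5 and IRX3, were not followed there.

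**Figure D1:**
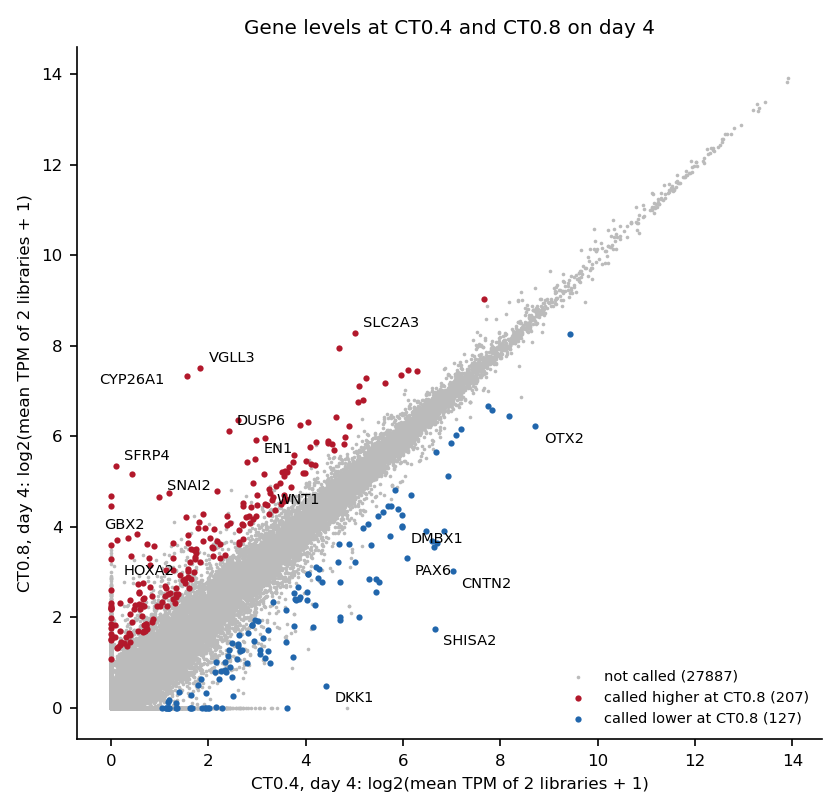
Each point is 1 of the 28221 genes tested, at the log2 of its mean TPM + 1 over the 2 CT0.4 libraries (horizontal axis) and over the 2 CT0.8 libraries (vertical axis) on day 4. Genes called higher at CT0.8 are red (207), those called lower are blue (127) and the rest are grey; CYP26A1 and VGLL3 lie farthest above the diagonal, and SHISA2 lies farthest below it among the labelled genes.

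The 5 marker genes given for this dose step were all called. EN1 (chr2:118842171-118847678, hg38), a homeobox gene of the midbrain and anterior hindbrain, stood at 5.32 and 8.19 TPM at CT0.4 and 49.6 and 38.2 TPM at CT0.8, a change of 2.55 ± 0.21 (adjusted p = 3.33e-08). WNT1 (chr12:48978453-48981676), the WNT ligand of the isthmic organizer, stood at 7.296 and 9.55 TPM at CT0.4 and 35.9 and 18.7 TPM at CT0.8 (1.53 ± 0.23, adjusted p = 0.000259). HOXA2 (chr7:27100354-27102811), the most anteriorly expressed HOX gene of the hindbrain, was listed at 0 and 0 TPM at CT0.4 and 6.28 and 11.4 TPM at CT0.8 (adjusted p = 2.33e-10). So for EN1 and WNT1 both CT0.8 libraries lay above both CT0.4 libraries, and HOXA2 was listed at 0 in each CT0.4 library. CYP26A1 (chr10:93073475-93077890) stood at 1.44 and 2.45 TPM at CT0.4 and 120.3 and 199 TPM at CT0.8 and had the largest change among protein-coding genes, 5.75 ± 0.33 (adjusted p = 2.23e-10). DMBX1 (chr1:46506996-46514226), a homeobox gene of the diencephalon and midbrain, went the other way, with 55.5 and 68.7 TPM at CT0.4 and 19.5 and 10.8 TPM at CT0.8 (-2.01 ± 0.23, adjusted p = 5.8e-06). With a pseudocount of 0.1 in place of 1, WNT1 and DMBX1 kept their direction and were no longer called, with changes of 1.62 and -2.08. In the fit of the 4 libraries alone none of the 5 was called, with adjusted p from 0.110 for CYP26A1 to 0.397 for WNT1. The samples are of mixed cells, so fewer cells of a type and less RNA per cell cannot be told apart in any of these values.

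**Figure D2:**
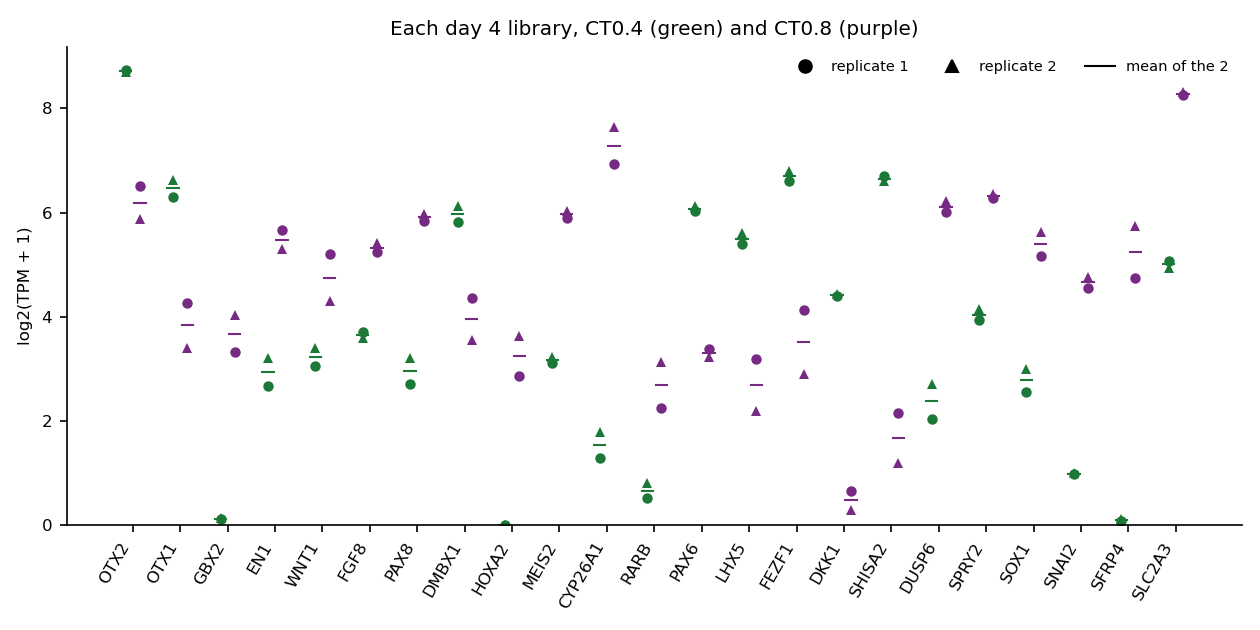
The vertical axis is log2(TPM + 1) of 23 genes in the 4 day 4 libraries, with CT0.4 in green, CT0.8 in purple, circles for replicate 1, triangles for replicate 2 and short bars for the mean of the 2. The colours do not overlap for any gene shown, and the 2 CT0.8 libraries of OTX2, DMBX1 and SHISA2 lie farther apart than the 2 CT0.4 libraries.

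The retinoid genes that rose are shown first as sequence, because promoters of 2 of them hold the letters of a retinoic acid response element (RARE), the paired site to which retinoic acid receptors bind. Promoter sequences are from RefSeq (GRCh38.p14), written 5′ to 3′ on the strand of the gene, with the matching bases in capitals. For RARB the stretch is the 120 bases before a transcript start, chr3:25428143-25428262 on the plus strand. For CYP26A1 it is 30 bases at chr10:93073796-93073825 on the plus strand, 97 to 68 bases before 1 transcript start and inside the first exon of a longer transcript. For DKK1, a secreted WNT antagonist described further on, it is the 120 bases before the start, chr10:52314161-52314280 on the plus strand, shown for its match to the site of the TCF/LEF factors, through which WNT signalling acts on genes.
RARB: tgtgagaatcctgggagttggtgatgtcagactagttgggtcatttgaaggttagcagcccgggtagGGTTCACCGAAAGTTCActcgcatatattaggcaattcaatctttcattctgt
CYP26A1: ttaaagaTGAACTTTGGGTGAACTaattgt
DKK1: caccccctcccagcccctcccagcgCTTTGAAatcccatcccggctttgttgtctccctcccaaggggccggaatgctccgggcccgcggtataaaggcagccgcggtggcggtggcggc
The capitals in RARB match GGTTCA, any 5 bases and AGTTCA. Those in CYP26A1 match AGTTCA, any 5 bases and AGTTCA on the opposite strand, and those in DKK1 match CTTTGAA. In the 250 bases before each of 35116 RefSeq starts, searched on both strands, the RARB form was found in 6 promoters (0.0171%) and the CYP26A1 form in 3 (0.00854%). Only these 2 spellings of the RARE were searched, 1 held by each of these genes, so the counts are a description and not a test. The TCF/LEF letters CTTTGAA were found in 3.8% of all promoters, in 2.76% of the 18311 promoters of genes tested, in 11 of the 227 promoters of called higher genes (4.85%) and in 5 of the 122 of called lower genes (4.1%). The letters CTTTGAT were found in 2.26% of all promoters, 1.49% of those of genes tested, 4 of 227 (1.76%) and 1 of 122 (0.82%). These are matches of letters, which do not show that a factor binds there.

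Of 14 retinoid genes tested, 3 rose and none fell, with 11 not called. Shares called over all genes tested were 0.733% higher and 0.45% lower. The median change of the list was 0.23, against 0.015 over all genes tested. Besides CYP26A1, RARB, a retinoic acid receptor, stood at 0.429 and 0.7398 TPM at CT0.4 and 3.75 and 7.77 TPM at CT0.8 (2.03 ± 0.21, adjusted p = 1e-06). CRABP2, which carries retinoic acid into the nucleus, stood at 192 and 210.4 TPM at CT0.4 and 549 and 489 TPM at CT0.8 (1.36 ± 0.13, adjusted p = 2.25e-07). CT0.8 was the higher dose in both libraries of each. CRABP1, the other cellular retinoic acid binding protein, stood at 199 and 224 TPM at CT0.4 and 457 and 489 TPM at CT0.8 and was not called (adjusted p = 0.221). The enzymes that make retinoic acid were low: ALDH1A1 was listed at 0 in all 4 libraries, ALDH1A2 was at most 1.91 TPM and ALDH1A3 at most 0.211 TPM. No retinoid was a labelled addition to any of the 4 cultures. Whether retinoic acid was present in them, and the cause of these changes, was not tested.

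The genes of the midbrain and the isthmus changed in both directions. Of 18 tested, 7 rose, 3 fell and 8 were not called, with a median change of 0.25. Over all genes tested, 0.733% were called higher and 0.45% lower. OTX2 fell from 427 and 415 TPM to 89.7 and 57.6 TPM (-2.53 ± 0.27, adjusted p = 1.61e-06), and GBX2, its partner across the boundary, stood at 0.0856 and 0.0915 TPM at CT0.4 and 8.96 and 15.3 TPM at CT0.8 (3.55 ± 0.23, adjusted p = 9.27e-10). OTX2 was thus still the more abundant of the pair at CT0.8, on the length-corrected TPM scale. The PAX genes of the isthmus did not move alike: PAX8 stood at 5.54 and 8.25 TPM at CT0.4 and 56.4 and 61.9 TPM at CT0.8 (2.95 ± 0.32), PAX5 stood at 0.606 and 0.536 TPM at CT0.4 and 3.398 and 5.11 TPM at CT0.8 (1.72 ± 0.19), and PAX2 stood at 30.7 and 38.04 TPM at CT0.4 and 45.4 and 31.8 TPM at CT0.8 (0.15, not called). FGF8, the organizer's growth factor, stood at 12.1 and 10.97 TPM at CT0.4 and 36.8 and 41.4 TPM at CT0.8 (1.68 ± 0.27, adjusted p = 0.000401). FGF17, a close relative of FGF8, stood at 1.69 and 2.28 TPM at CT0.4 and 12.6 and 13.4 TPM at CT0.8 (2.24 ± 0.21, adjusted p = 2.34e-07). The 3 that fell were OTX2, DMBX1 and LMX1A, a homeobox gene of the roof plate and the midbrain floor, which stood at 5.42 and 3.83 TPM at CT0.4 and 0.486 and 0.719 TPM at CT0.8 (-1.801 ± 0.25). EN2, the second engrailed gene, reached at most 0.331 TPM in the 4 libraries and was not called.

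Most forebrain and diencephalon genes that were called were lower at CT0.8. Over all genes tested, 0.45% were called lower and 0.733% higher. Of 18 genes of the eye field and rostral forebrain, 4 fell and none rose, and the list's median was -0.45. They were FEZF1, a zinc finger repressor of the forebrain, at 95.7 and 111 TPM at CT0.4 and 16.4 and 6.44 TPM at CT0.8 (-3.19 ± 0.33), EMX2, a homeobox gene of the dorsal forebrain, at 12.5 and 12.2 TPM at CT0.4 and 1.73 and 0.603 TPM at CT0.8 (-2.68 ± 0.24), OTX1 at 77.8 and 97.6 TPM at CT0.4 and 18.2 and 9.605 TPM at CT0.8 (-2.63 ± 0.26) and OTX2. In each the 2 doses were well apart, and CT0.8 replicate 2 was the lowest library. The eye field genes themselves were already low at CT0.4: RAX was at most 0.694 TPM and SIX6 was listed at 0 in all 4 libraries. Of 15 diencephalon genes, 5 fell and 2 rose, with a median of -0.46. LHX5, a LIM homeobox gene of the caudal forebrain, stood at 40.9 and 47.7 TPM at CT0.4 and 8.15 and 3.56 TPM at CT0.8 (-2.81 ± 0.32) and BARHL1 at 3.84 and 3.09 TPM at CT0.4 and 0 and 0.0291 TPM at CT0.8 (-2.13 ± 0.24). DMBX1, POU4F1 (-1.83 ± 0.297) and DBX1 (-1.73 ± 0.38) also fell. GBX2 and IRX3 rose, IRX3 with 4.74 and 6.397 TPM at CT0.4 and 17.3 and 13.5 TPM at CT0.8 (1.32 ± 0.34). DBX1 was not called with a pseudocount of 0.1 (-1.78), nor without CT0.4 replicate 1 (-1.73), CT0.4 replicate 2 (-1.73) or CT0.8 replicate 2 (-1.43).

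Hindbrain genes called were all higher. Of 14 tested, GBX2, HOXA2 and MEIS2 rose and none fell, with a median of 0.091. Shares called over all genes tested were 0.733% higher and 0.45% lower. MEIS2, a partner protein of HOX factors, stood at 7.58 and 8.37 TPM at CT0.4 and 58.8 and 64.6 TPM at CT0.8 (2.803 ± 0.35, adjusted p = 2.11e-05), while its relative MEIS1 stood at 4.54 and 4.72 TPM at CT0.4 and 4.25 and 5.44 TPM at CT0.8 and was not called. HOXA2 was the only anterior HOX gene of the list called: HOXA3 was listed at 0 in all 4 libraries, and HOXB1 and HOXB2 stayed under 0.12 TPM. EGR2, which marks middle hindbrain segments, was not called. Of 20 HOX genes of paralogue groups 4 to 13, which mark the caudal hindbrain and spinal cord, none was called by limma, and none passed an unadjusted p of 0.05. None of them exceeded 0.651 TPM in the 4 libraries, so a change of 1 on the log2(TPM + 1) scale could not be reached. TPM of all 26 genes of this list, tested or not, summed to 0.426 and 0.648 at CT0.4 and 1.02 and 1.26 at CT0.8. Of 11 genes of caudal and axial progenitors, FGF8 and FGF17 rose and none fell. Both are also in the isthmus and FGF ligand lists. CDX1, CDX2, CDX4, TBXT and NKX1-2 of the caudal list were not called.

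WNT pathway genes showed no common direction. Among 16 targets and feedback genes, which cells turn on when the pathway is active, 1 rose, 1 fell and 14 were not called. The list's median was 0.0089. Over all genes tested, 0.733% were called higher and 0.45% lower. NKD2, an intracellular inhibitor, stood at 2.01 and 1.56 TPM at CT0.4 and 6.65 and 5.58 TPM at CT0.8 (1.35 ± 0.31), and TNFRSF19, a membrane receptor, stood at 49.9 and 44.2 TPM at CT0.4 and 21.1 and 16.8 TPM at CT0.8 (-1.27 ± 0.21). The NKD2 call was lost without any 1 of the 4 libraries, with changes between 1.23 and 1.47, and the target list had 1 call without CT0.8 replicate 2. AXIN2, the negative feedback gene used most as a readout of the pathway, stood at 53.3 and 60.8 TPM at CT0.4 and 55.7 and 38.4 TPM at CT0.8 (-0.29, adjusted p = 0.698), so the ranges of the 2 doses overlapped. SP5, a second direct target, stood at 58.4 and 47.6 TPM at CT0.4 and 32.7 and 13.99 TPM at CT0.8 (-1.26, adjusted p = 0.273), a change that was -0.68 without CT0.8 replicate 2, and LEF1 stood at 31.6 and 27.9 TPM at CT0.4 and 28.9 and 35.01 TPM at CT0.8.

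The secreted antagonists, which bind WNT ligands or their receptors, held large changes in both directions. DKK1 stood at 19.9 and 20.7 TPM at CT0.4 and 0.576 and 0.224 TPM at CT0.8 (-3.94 ± 0.295, adjusted p = 9.76e-09). SFRP4, a decoy receptor, stood at 0.0553 and 0.0864 TPM at CT0.4 and 25.8 and 52.8 TPM at CT0.8 (5.15 ± 0.38, adjusted p = 8.8e-09). WIF1, a ligand-binding inhibitor, stood at 1.79 and 2.204 TPM at CT0.4 and 8.62 and 4.101 TPM at CT0.8 (1.23 ± 0.23), a call that was lost with a pseudocount of 0.1 (1.54) and without CT0.8 replicate 1 (0.77). SFRP1, the most abundant antagonist, stood at 339.9 and 343 TPM at CT0.4 and 305 and 359.7 TPM at CT0.8 and was not called. With 9 antagonists tested, 2 rose and 1 fell, and DKK1 and SFRP4 each lay far outside the other dose's range. Shares called over all genes tested were 0.733% higher and 0.45% lower. Among 14 WNT ligands WNT1 rose and WNT5B, a ligand of the non-canonical branch, fell with 28.7 and 33.95 TPM at CT0.4 and 10.1 and 6.67 TPM at CT0.8 (-1.805 ± 0.22). Among 12 receptors, FZD5, a frizzled of the anterior neural plate, stood at 34.7 and 42.1 TPM at CT0.4 and 6.98 and 5.39 TPM at CT0.8 (-2.46 ± 0.16), FZD10 stood at 5.39 and 6.94 TPM at CT0.4 and 18.6 and 17.2 TPM at CT0.8 (1.41 ± 0.18), and FZD7, the most abundant, stood at 208 and 238 TPM at CT0.4 and 204 and 189.6 TPM at CT0.8 and was not called. RSPO2, a secreted enhancer of WNT signalling in the roof plate list, stood at 44.4 and 40.3 TPM at CT0.4 and 7.597 and 4.65 TPM at CT0.8 (-2.63 ± 0.27). SHISA2, which holds back WNT and FGF receptors inside the cell, had the largest fall of all protein-coding genes, from 103 and 96.1 to 3.42 and 1.29 TPM (-4.98 ± 0.21, adjusted p = 2.31e-12).

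FGF ligands and the feedback genes of the ERK pathway that FGF activates were higher where called. Of 11 ligands, FGF8 and FGF17 rose and none fell, and of 17 feedback genes 3 rose and none fell. The medians of these lists were 0.50 and 0.43, against 0.015 over all genes tested. Shares called over all genes tested were 0.733% higher and 0.45% lower. DUSP6, a phosphatase that switches ERK off, stood at 3.10 and 5.56 TPM at CT0.4 and 63.1 and 73.9 TPM at CT0.8 (3.74 ± 0.29, adjusted p = 1.78e-08). SPRY2, an inhibitor of receptor tyrosine kinase signalling, stood at 14.3 and 16.6 TPM at CT0.4 and 76.3 and 80.7 TPM at CT0.8 (2.27 ± 0.17, adjusted p = 8.8e-09). IL17RD, another membrane inhibitor of FGF signalling, stood at 11.04 and 10.3 TPM at CT0.4 and 26.5 and 23.4 TPM at CT0.8 (1.15 ± 0.28), and its call was lost without any 1 of the 4 libraries, with changes between 1.07 and 1.24, and in a fit of the day 4 libraries alone. The transcription factors ETV4 and ETV5, which ERK turns on, had changes of 0.95 and 0.99 and were not called, and ETV1 stood at 0.003. FLRT3, the most abundant gene of the feedback list, pointed the other way at -0.78 without a call. FGFBP3, a secreted carrier of FGFs, was outside the lists and stood at 21.5 and 27.9 TPM at CT0.4 and 218 and 274 TPM at CT0.8 (3.27 ± 0.18, adjusted p = 8.11e-11).

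**Figure D3:**
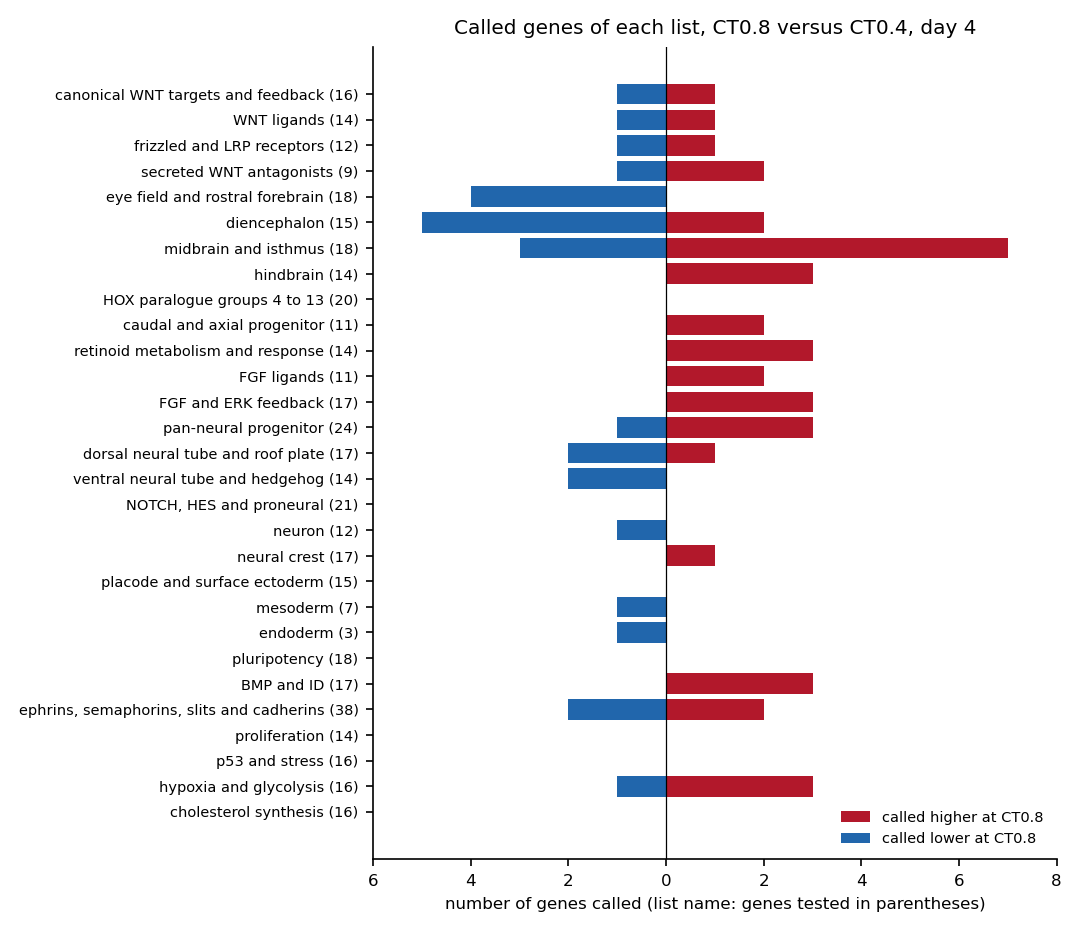
Bars show, for each of the 29 gene lists, how many members were called higher (red, to the right) or lower (blue, to the left) at CT0.8 than at CT0.4 on day 4, with the number of members tested in parentheses after the list's name. The midbrain and isthmus list has the most called genes (7 higher and 3 lower), and 7 lists have none. Over all genes tested, 0.733% were called higher and 0.45% lower. Some genes are in several lists.

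Pan-neural genes, shared by progenitors all along the axis, were mostly not called. Of 24 tested, 3 rose, 1 fell and 20 were not called, with a median of 0.092. Over all genes tested, 0.733% were called higher and 0.45% lower. SOX2, the stem and progenitor factor, was high in all 4 libraries at 324 and 332 TPM at CT0.4 and 268 and 276 TPM at CT0.8, and so was the intermediate filament gene NES at 223 and 259 TPM at CT0.4 and 337 and 432 TPM at CT0.8. SOX1, a SOX family B gene that marks definitive neural plate, stood at 4.88 and 7.01 TPM at CT0.4 and 35.1 and 48.7 TPM at CT0.8 (2.62 ± 0.23, adjusted p = 1.46e-07). SOX3, of the same family, stood at 6.62 and 7.18 TPM at CT0.4 and 13.1 and 22.4 TPM at CT0.8 (1.204 ± 0.21). SOX3 was not called without CT0.8 replicate 2 (0.84), where the list had 2 calls in place of 4. PAX6, an eye, forebrain and hindbrain gene, fell from 64.1 and 68.4 to 9.44 and 8.31 TPM (-2.77 ± 0.16, adjusted p = 2.56e-10). The cadherin CDH2 stood at 200.4 and 203 TPM at CT0.4 and 126 and 140.4 TPM at CT0.8, a change of -0.596 ± 0.063 that passed the adjusted p (1.68e-06) but not the size needed for a call. SOX21 and WNT8B, the genes named in the title of the series, were not called: SOX21 stood at 98.6 and 114 TPM at CT0.4 and 81.8 and 84.1 TPM at CT0.8 (-0.35 ± 0.26, adjusted p = 0.645), and WNT8B was at most 0.59 TPM in any of the 4 libraries (-0.46 ± 0.27, adjusted p = 0.513).

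The dorsal, ventral and neuronal lists held 3 of 17, 2 of 14 and 1 of 12 genes called, against 1.18% of all genes tested. Of 17 dorsal genes 1 rose (WNT1) and 2 fell (LMX1A and RSPO2). Of 14 genes of the ventral tube and hedgehog pathway 2 fell, NKX6-1 from 6.32 and 10.2 to 1.76 and 0.987 TPM (-1.95 ± 0.402) and DBX1, and none rose. The ventral list had 1 call without CT0.8 replicate 2 or CT0.4 replicate 1 and 0 without CT0.4 replicate 2. NKX6-1 was not called without CT0.4 replicate 2 (-1.64) or CT0.8 replicate 2 (-1.72). None of 21 NOTCH, HES and proneural genes was called by limma. An unadjusted p under 0.05 was reached by 2 in each direction, against 8.46% higher and 4.9% lower of all genes tested. HES3, the most abundant, stood at 146 and 174 TPM at CT0.4 and 148 and 138 TPM at CT0.8. Of 12 neuronal genes only POU4F1, a sensory and midbrain neuron factor, was called, and it fell from 36.6 and 42.1 to 15.1 and 6.99 TPM. TUBB3, the neuronal tubulin, stood at 85.8 and 123 TPM at CT0.4 and 97.2 and 111 TPM at CT0.8 and was not called. Of 17 BMP pathway genes 3 rose and none fell: ID3, a target of BMP signalling, at 27.7 and 37.4 TPM at CT0.4 and 104 and 108 TPM at CT0.8 (1.69 ± 0.17), BMP5 at 0.429 and 0.531 TPM at CT0.4 and 3.63 and 4.11 TPM at CT0.8 (1.72 ± 0.21) and CHRD, a BMP antagonist, at 2.05 and 2.44 TPM at CT0.4 and 5.23 and 8.63 TPM at CT0.8 (1.26 ± 0.26). CHRD was not called without CT0.4 replicate 1 (1.17) or CT0.8 replicate 2 (0.94). ID2, the most abundant gene of the BMP list, stood at 418 and 379 TPM at CT0.4 and 287 and 253 TPM at CT0.8. Its change of -0.56 was not called. At an unadjusted p of 0.05 the BMP list had 7 genes higher and 2 lower, against 8.46% and 4.9% of all genes tested. Among 38 guidance and adhesion genes, EFNB2 (1.11 ± 0.098) and CDH11 (1.78 ± 0.29) rose and EPHA7 (-1.95 ± 0.18) and SEMA3A (-1.496 ± 0.25) fell.

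Markers of other cell types were checked in the same libraries. Over all genes tested, 1.18% were called. Of 17 neural crest genes 1 was called, SNAI2, a repressor of epithelial adhesion, which stood at 0.966 and 0.993 TPM at CT0.4 and 22.5 and 26.2 TPM at CT0.8 (3.67 ± 0.27, adjusted p = 8.8e-09). The crest list had 3 calls without CT0.8 replicate 2, 2 without CT0.4 replicate 1 and 3 with a pseudocount of 0.1, and at an unadjusted p of 0.05 it had 3 genes higher and 1 lower, against 8.46% and 4.9% of all genes tested. PAX7 stood at 0.155 and 0.0525 TPM at CT0.4 and 1.41 and 0.796 TPM at CT0.8 and TFAP2B at 0.0246 and 0.05096 TPM at CT0.4 and 1.66 and 0.429 TPM at CT0.8, neither of them called. SOX10 and FOXD3, defining crest genes, reached at most 0.35 and 0.122 TPM, and the whole list summed to 71.1 and 80.8 TPM at CT0.4 and 86.1 and 85.3 TPM at CT0.8. Of 15 placode and surface ectoderm genes none was called by limma, and the list summed to between 108 and 141 TPM. At an unadjusted p of 0.05, 1 was higher and 4 lower, against 8.46% and 4.9% of all genes tested. Of 7 mesoderm genes KDR, a vascular growth factor receptor, fell from 8.25 and 8.87 to 0.79 and 1.18 TPM (-2.27 ± 0.17), and the defining gene TBXT was at most 0.761 TPM. Of 3 endoderm genes tested GSC, an organizer homeobox gene, fell from 2.90 and 2.83 to 0.374 and 0.109 TPM (-1.65 ± 0.21), and the list had 2 calls without CT0.8 replicate 1. SOX17, the defining endoderm gene, was listed at 0 in all 4 libraries. None of 18 pluripotency genes was called by limma. At an unadjusted p of 0.05, 3 were higher and 1 lower, against 8.46% and 4.9% of all genes tested. NANOG was at most 0.165 TPM, while POU5F1 stood at 46.5 and 34.1 TPM at CT0.4 and 42.7 and 41.6 TPM at CT0.8. None of 14 proliferation genes was called by limma. At an unadjusted p of 0.05, 2 were higher and 4 lower, against 8.46% and 4.9% of all genes tested. None of 16 p53 and stress genes was called by limma, with 3 higher and none lower unadjusted, against the same shares.

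Some genes of glucose use rose with the step. SLC2A3, a neuronal-type glucose transporter, stood at 32.6 and 29.7 TPM at CT0.4 and 306 and 316 TPM at CT0.8 (3.28 ± 0.17, adjusted p = 2.58e-11), with little spread within each dose. Of 16 hypoxia and glycolysis genes 3 rose, 1 fell and 12 were not called, and 12 were higher at an unadjusted p of 0.05, against 8.46% of all genes tested. The list's median was 0.62, the highest of the 29 lists, against 0.015 over all genes tested. Shares called over all genes tested were 0.733% higher and 0.45% lower. PDK1, which holds back the oxidation of pyruvate in the mitochondria, stood at 4.79 and 3.57 TPM at CT0.4 and 19.3 and 16.1 TPM at CT0.8 (1.86 ± 0.21, adjusted p = 4.1e-06). PFKFB4, which speeds glycolysis, rose by 1.45 ± 0.22, and BNIP3, a mitophagy receptor, by 1.34 ± 0.19. EGLN3, an oxygen sensor that hypoxia usually raises, fell from 18.8 and 17.3 to 5.83 and 6.66 TPM (-1.395 ± 0.26). ENO1, the most abundant member, stood at 978 and 993 TPM at CT0.4 and 1297 and 1250.0 TPM at CT0.8 (0.37 ± 0.069) and was under the size needed for a call. CT0.8 replicate 1 was the higher of its pair for PFKFB4, BNIP3, LDHA, PGK1 and ALDOA. None of 16 cholesterol synthesis genes was called by limma, although 9 had an unadjusted p under 0.05, all of them higher at CT0.8, against 8.46% of all genes tested, with a median of 0.27.

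The other large changes lay outside the lists. VGLL3, a cofactor of the TEAD transcription factors, stood at 2.21 and 2.896 TPM at CT0.4 and 132 and 230.1 TPM at CT0.8 (5.63 ± 0.37, adjusted p = 1.08e-09). SPOCK1, a secreted proteoglycan, stood at 4.72 and 5.41 TPM at CT0.4 and 70.05 and 92.5 TPM at CT0.8 (3.75 ± 0.33). HTR2C, a serotonin receptor, stood at 0.442 and 0.445 TPM at CT0.4 and 9.31 and 17.5 TPM at CT0.8 (3.26 ± 0.22). In all 3 the CT0.4 values were close together and CT0.8 replicate 2 was the highest library, and FAM65B (3.36 ± 0.25) had the same order. CNTN2, an adhesion protein of early axons, fell, with 120.0 and 138 TPM at CT0.4 and 10.3 and 3.92 TPM at CT0.8 (-4.12 ± 0.39). NRIP3 (-3.15 ± 0.26), the calcium sensor VSNL1 (-2.901 ± 0.39), the LIM-only factor LMO1 (-2.77 ± 0.34) and the secreted protein SCUBE2 (-2.72 ± 0.35) also fell, each with CT0.8 replicate 2 as the lowest library.

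Across the 7 doses of day 4 the step was part of several kinds of profile. EN1 was listed at 0 in both CT0.0 libraries and had a mean of 6.75 ± 2.03 TPM (SD, n = 2) at CT0.4 and 43.9 ± 8.11 at CT0.8. It then fell back to 2.43 ± 0.944 TPM with CT1.0 and 0.0125 ± 0.0177 TPM with CT2.0, so CT0.8 was its highest dose. PAX8 and WNT1 were also highest at CT0.8, with 59.2 ± 3.89 and 27.3 ± 12.2 TPM there and 11.8 ± 0.821 and 4.85 ± 1.05 TPM at CT1.0. CYP26A1 went on to 287 ± 38.6 TPM at CT1.0 and 129.9 ± 18.6 at CT2.0 and was 0.0566 ± 0.07999 at CT3.0. VGLL3 and SFRP4 had the same highest dose, with 353 ± 31.5 and 74.96 ± 15.6 TPM at CT1.0. HOXA2 was 21.7 ± 4.42 TPM at CT1.0 and 22.5 ± 1.03 at CT2.0 and 10.7 ± 0.228 at CT3.0. GBX2 and FGF8 were highest at the top doses, with 50.2 ± 7.67 TPM of GBX2 at CT3.0 and 201 ± 39.6 TPM of FGF8 at CT4.0. OTX2 was 216 ± 3.22 TPM without CT, 421 ± 8.74 at CT0.4 and 73.6 ± 22.7 at CT0.8, and the next doses, CT1.0 and CT2.0, gave 8.19 ± 5.15 and 0.272 ± 0.0938 TPM. DKK1 was found at CT0.4 at 20.3 ± 0.539 TPM and at under 1 TPM at every other CT dose of day 4. DUSP6 had its lowest mean at CT0.4, 4.33 ± 1.74 TPM, against 36.1 ± 5.34 at CT0.0 and 237 ± 7.21 at CT4.0.

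**Figure D4:**
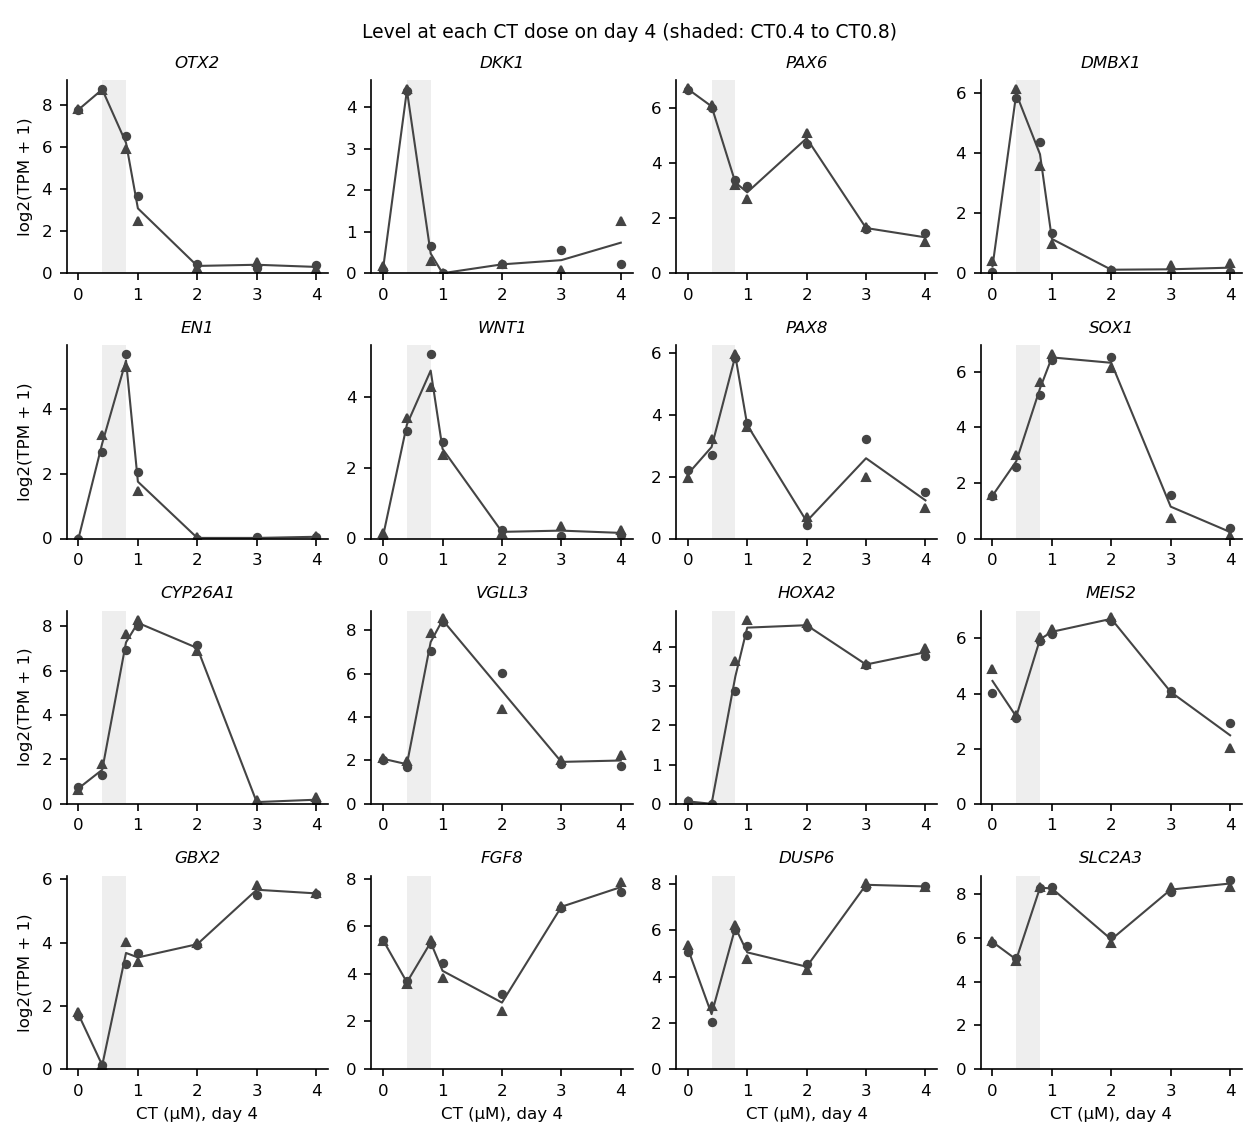
Each panel shows log2(TPM + 1) of 1 gene (vertical axis) against the CT dose in µM on day 4 (horizontal axis), with circles for replicate 1, triangles for replicate 2, a line through the means, and the interval from CT0.4 to CT0.8 shaded. EN1, WNT1 and PAX8 are highest at CT0.8, CYP26A1 and VGLL3 at CT1.0, and DKK1 stands out at CT0.4 alone.

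Over the called genes, 49 of the 207 higher ones (23.7%) had their highest day 4 mean at CT0.8 and 75 (36.2%) at CT1.0, against 9.93% and 7.16% of all genes tested. Of the 127 lower ones, 81 (63.8%) were highest at CT0.4 and 39 (30.7%) at CT0.0, against 8.98% and 33.6%. These shares describe the profiles and are not a test, since the CT0.4 and CT0.8 means chose the genes. The neighbouring steps share libraries with this one and are given beside it only for single genes. From CT0.0 to CT0.4, where 2.23% of genes were called (0.659% higher and 1.57% lower), EN1 changed by 2.93, WNT1 by 3.14, DMBX1 by 5.75, OTX1 by 2.96, DKK1 by 4.29, DUSP6 by -2.83 and FEZF1 by -2.07. From CT0.8 to CT1.0, where 0.943% were called (0.191% higher and 0.751% lower), EN1 changed by -3.73, WNT1 by -2.22, DMBX1 by -2.82, OTX2 by -3.11, HOXA2 by 1.24 and SOX1 by 1.12, all called.

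The same dose step was measured on day 8 in 4 other libraries, and CT2.0 was compared with CT0.0 on day 4 in 4 more. On day 8, 1832 genes were called (6.49%), 2.26% higher and 4.23% lower. Of the 207 genes called higher on day 4, 74 (35.7%) were called higher and 15 (7.25%) lower on day 8. Of the 127 called lower, 53 (41.7%) were called lower and 1 (0.787%) higher. Between CT2.0 and CT0.0 on day 4, where 2.1% of genes were higher and 3.85% lower, 81 of the 207 (39.1%) were called higher and 8 lower, and 68 of the 127 (53.5%) were called lower and 7 higher. The split of day 8 calls depended on scaling, with 34.9% of them higher as deposited, 48.5% with median-ratio scaling and 49.5% after removing ribosomal protein and mitochondrial genes. For CT2.0 against CT0.0 these shares were 35.3%, 51.8% and 48.5%.

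**Figure D5:**
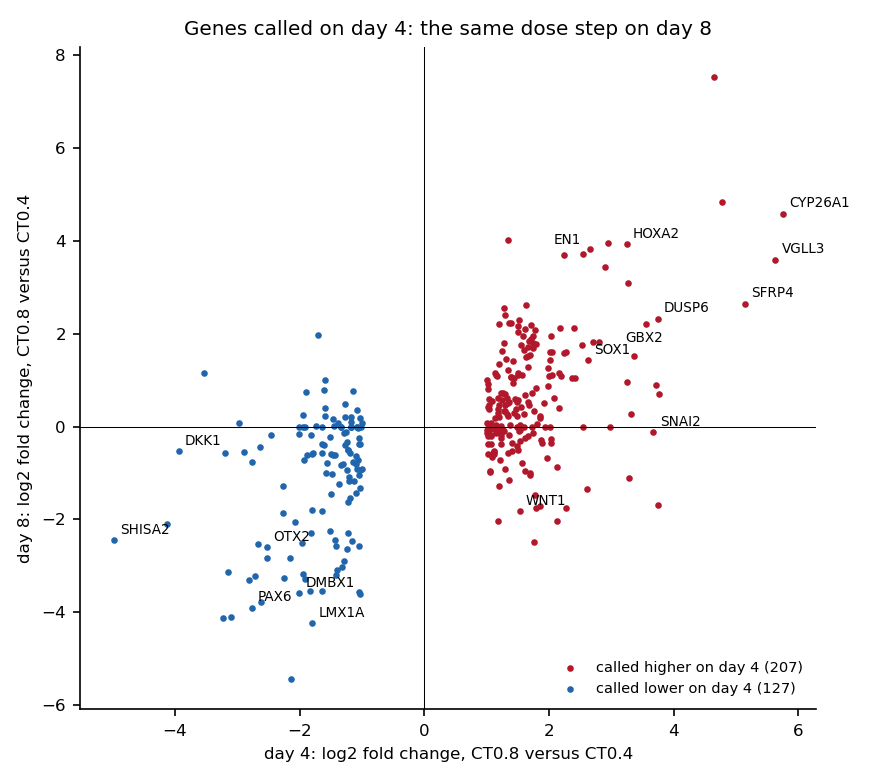
Each point is 1 of the 334 genes called on day 4, at its log2 fold change between CT0.4 and CT0.8 on day 4 (horizontal axis) and in the 4 separate libraries of day 8 (vertical axis). Red genes were called higher on day 4 (207) and blue ones lower (127); CYP26A1, HOXA2 and EN1 are high on both days, and WNT1 is high on day 4 and low on day 8.

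Gene by gene, the day 8 step matched that of day 4 for some regional genes and was opposite for others. CYP26A1 stood on day 8 at 0.296 and 0.322 TPM at CT0.4 and 34.2 and 27.2 TPM at CT0.8 (4.59 ± 0.33). HOXA2 was listed on day 8 at 0 and 0 TPM at CT0.4 and 13.7 and 15.02 TPM at CT0.8, again at 0 in both CT0.4 libraries. EN1 stood at 0.705 and 0.745 TPM at CT0.4 and 21.5 and 21.7 TPM at CT0.8 (3.71 ± 0.21) and OTX2 at 413 and 403 TPM at CT0.4 and 65.8 and 67.3 TPM at CT0.8 (-2.597 ± 0.27). WNT1 was opposite, with 547 and 420.1 TPM at CT0.4 and 142 and 128 TPM at CT0.8 on day 8 (-1.82 ± 0.23), and the test of the difference between the days, which called 5.43% of all genes tested (1.15% higher and 4.28% lower on day 8), gave -3.35. SPOCK1 (-1.699), SLC2A3 (-1.105) and ID3 (-1.001) were also called lower on day 8 after being called higher on day 4. SNAI2 stood on day 8 at 17.4 and 11.6 TPM at CT0.4 and 14.2 and 11.97 TPM at CT0.8 and was not called. SOX21, not called on day 4, stood on day 8 at 7.97 and 13.7 TPM at CT0.4 and 50.7 and 51.6 TPM at CT0.8 (2.18 ± 0.26), and WNT8B at 16.0 and 31.5 TPM at CT0.4 and 5.96 and 3.68 TPM at CT0.8 (-2.04 ± 0.27). Between CT0.0 and CT2.0 on day 4, CYP26A1 changed by 6.33, HOXA2 by 4.49, SOX1 by 4.78, SHISA2 by -6.11 and OTX2 by -7.42, all called, while EN1 (0.018), WNT1 (0.11), DMBX1 (-0.11) and DKK1 (0.091) were not called.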

How the data were processed

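The authors deposited 1 table of TPM values per gene for 38 poly(A) paired-end libraries. CASAVA 1.7, Salmon 0.8.2 and hg38 are named per the submitters' processing notes; their settings, the annotation and the strand are not stated in these sources, so reads of a gene and an overlapping antisense gene cannot be told apart. Libraries ran on either of a pair of sequencer models, and the labels do not say which. TPM keeps no depth, so no counting interval is given. The 28221 of 58219 genes that reached 1 TPM in 2 or more libraries were kept, 15533 of them protein-coding. A limma 3.58.1 model of log2(TPM + 1) took 1 mean for each of the 19 groups (R 4.3.3, eBayes with trend, 19 residual degrees of freedom). The fit was tested on simulated data. Positions are from GENCODE release 29. The members and the 29 lists (409 of 449 symbols tested) were chosen with earlier results of these data known. Some genes are in several lists, so a call can count in each of them. Named were the title genes, the markers, the 12 largest changes each way and, per list, the 4 largest and the most abundant gene not called (93 genes). Other genes, such as PAX5, IRX3 and AXIN2, were named after their values were seen. Alternatives changed the pseudocount, filter, scaling, genes, libraries or replicate block. Some of these genes are not reported here.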

Additional observations from a re-analysis of the deposited data

Results flagged for a closer look

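The dose step itself was compared between days: for 48 of the 93 named genes, the step from CT0.4 to CT0.8 differed between day 8 and day 4 by limma's test of the difference, against 5.43% of all genes tested. The difference uses the same day 4 libraries as the day 4 calls and is not independent of them. Values are the day 8 step minus the day 4 step on the log2(TPM + 1) scale.

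Of the genes called higher on day 4, 2 had a larger step between the doses on day 8, EN1 (1.16) and FGF17 (1.46), both genes of the isthmus region. Another 4 were called in opposite directions on the 2 days: SPOCK1 (-5.45), SLC2A3 (-4.38), WNT1 (-3.35) and ID3 (-2.69). The rest had a smaller step or no called step on day 8. They were SNAI2 (-3.79), SFRP4 (-2.50), HTR2C (-2.31), VGLL3 (-2.03), FZD10 (-1.94), FAM65B (-1.84), PDK1 (-1.67), CRABP2 (-1.55), DUSP6 (-1.42), GBX2 (-1.33), IL17RD (-1.29), SOX1 (-1.20), EFNB2 (-1.16) and SOX3 (-1.003).

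Of the genes called lower on day 4, 8 had a larger fall between the doses on day 8: BARHL1 (-3.31), LMX1A (-2.45), POU4F1 (-1.71), EGLN3 (-1.70), DMBX1 (-1.58), EPHA7 (-1.22), OTX1 (-1.15) and PAX6 (-1.14). Another 12 had a smaller fall or no called fall on day 8: GSC (1.27), DBX1 (1.73), TNFRSF19 (1.75), LMO1 (2.00), CNTN2 (2.03), RSPO2 (2.19), NKX6-1 (2.20), FZD5 (2.28), VSNL1 (2.35), SHISA2 (2.53), FEZF1 (2.61) and DKK1 (3.41).

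Among named genes not called on day 4, 8 differed: FZD7 (2.20), SOX21 (2.53) and HES3 (3.35) upwards, and WNT4 (-5.48), PDGFRA (-1.72), WNT8B (-1.58), KRT8 (-1.06) and CDH2 (-1.06) downwards.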

How the results depend on the processing

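No named gene called in the main fit or in an alternative changed direction there. For genes called in neither, changes of direction were not counted. For the day 4 step, 310 to 389 genes were called under other pseudocounts, no filter, scalings and the replicate block, 292 with a 5 TPM filter, 291 in the day 4 libraries alone and 268 among protein-coding genes, against 334. Only the libraries compared gave 77 calls for the day 4 step, 338 for the day 8 step, 683 for the difference between the days, 694 for CT2.0 against CT0.0, 102 for CT0.4 against CT0.0 and 54 for CT1.0 against CT0.8. In that fit of the day 4 step, 59 of the 93 named genes lost their call, and SNAI2, SLC2A3, PAX6, MEIS2 and SPRY2 kept theirs. The others of the 93 were not called in the main fit either. The cause of the lower counts was not tested, although this fit has fewer samples. Protein-coding genes alone gave 1216 calls for the day 8 step. Leaving out 1 library at a time gave 292 to 361 calls for the day 4 step, 1588 to 2015 for day 8, 1162 to 1660 for the difference, 1594 to 1791 for CT2.0 against CT0.0, 476 to 820 for CT0.4 against CT0.0 and 205 to 304 for CT1.0 against CT0.8. The share of calls that were higher moved with median-ratio scaling from 21.1% to 38.9% for the difference, from 29.6% to 47.9% for CT0.4 against CT0.0 and from 20.3% to 33.8% for CT1.0 against CT0.8. That scaling brought the median change of all genes to 0, from -0.153 for the difference, -0.107 for CT2.0 against CT0.0 and -0.105 for CT0.4 against CT0.0. Same-numbered libraries of CT0.4 and CT0.8 did not deviate together (r = -0.0136 over genes), and with the replicate block 324 genes were called, 320 of them among the 334. Depth is unknown, which limits the low genes. With a pseudocount of 0.1, HOXA2 (6.42), SFRP4 (7.76), GBX2 (5.97), BARHL1 (-4.96), LMX1A (-2.75), GSC (-3.23) and BMP5 (2.78) moved by over 1.5 times and kept their direction. The neural crest list had 3 calls with that pseudocount and without CT0.8 replicate 2.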

Other observations

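Of the 333 called genes with a position, 59 lay next to another called gene. Of 28030 pairs of tested genes adjacent on hg38, 32 were both called (0.114%), 29 of them in the same direction. Of the 32 pairs, 17 overlapped and 7 were both protein-coding. Strand is not stated, so reads of overlapping genes cannot be told apart. The non-coding gene HOTAIRM1, 0.089 kb from HOXA2, was listed at 0 and 0 TPM at CT0.4 and 19.04 and 30.01 TPM at CT0.8. RP11-348J12.5, 0.009 kb from CYP26A1, stood at 0 and 0.699 TPM at CT0.4 and 29.02 and 41.1 TPM at CT0.8. Beside EN1, LINC01956 (7.061 kb away) changed by 2.41 ± 0.28 and MARCO (94.488 kb away) by 2.01 ± 0.21. These genes were chosen after their values were seen.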
